A study of Oryza sativa with 18 samples.

Results

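The 9 core circadian clock genes of rice (Oryza sativa) were followed in flag leaves during grain filling. They were chosen by locus as the rice clock genes LHY, PRR1, PRR37, PRR59, PRR73, PRR95, GI, LUX and ELF3, and all 9 were found among the 55986 loci of the deposited count table. The study sequenced RNA from leaves of field-grown rice that differs in OsPHO1;2, a phosphate exporter gene, and its title asks how that gene bears on flag leaf photosynthesis while the grain fills. There were 18 libraries in 6 groups of 3. The groups were the line Ospho1;2-Ko1 (a mutant, here Ko1), the line OsPHO1;2-OE (an overexpression line, here OE) and the wild type (WT), each at 15DAF and at 5DAF (DAF is read here as days after flowering). Each altered genotype is represented by 1 named line, and the sources used here give neither the kind of mutation nor the promoter of the overexpression construct. No label gives the hour of harvest. Clock genes change through every day, so a difference in harvest hour between groups and an effect of genotype or stage cannot be told apart in what follows.

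The plant clock is a loop of transcription factors that hand over to each other through the day. LHY acts around dawn, the pseudo-response regulators (PRR) repress in succession from morning to evening, and in Arabidopsis LUX and ELF3 join ELF4 in an evening complex that represses day genes. GI links the clock to light and to flowering. In rice, PRR37 and ELF3 are best known as heading date genes, and leaf metabolism follows the clock through the daily cycle of photosynthesis and starch use.

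The total count per library ranged from 13223554 to 18264909, and the lowest count of any clock gene in any library was 412, so all 9 passed the filter on low counts that 20437 loci passed. Levels are given in CPM, counts scaled to a common library size by TMM. OsPHO1;2 (LOC_Os02g56510) had 6.10, 6.14 and 6.07 CPM in Ko1, 17.995, 4.75 and 29.5 CPM in OE and 1.78, 2.58 and 3.25 CPM in WT at 15DAF. At 5DAF it had 3.38, 2.78 and 1.10 CPM in Ko1, 5.91, 8.89 and 9.74 CPM in OE and 1.72, 3.52 and 2.25 CPM in WT. OE libraries were all above WT libraries at both stages. Ko1 libraries were above WT libraries at 15DAF and overlapped them at 5DAF, and a transcript level does not check a mutation of unknown kind. The libraries held leaf RNA, with 3632 to 11615 CPM in the sum of 4 leaf genes (2 RBCS genes, RCA and Lhcb1) and 1.38 to 5.44 CPM in the sum of 3 grain genes. Whether replicates are separate plants is not labelled, and the p-values speak only to the spread among these libraries, which may be technical. In bulk leaf RNA, fewer cells of a type and less RNA per cell cannot be told apart.

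The library labelled WT 5DAF replicate 3 stands apart in the clock genes. Its mean absolute log2 difference over the 9 genes was 0.122 from the Ko1 5DAF mean, 0.422 from the OE 5DAF mean and 0.667 from the mean of its own other 2 replicates. Replicates 1 and 2 of WT 5DAF lay 0.562 and 0.823 from the Ko1 5DAF mean. Neither was nearest to its own group, whose mean for them includes replicate 3. Replicate 1 lay 0.260 from the OE 5DAF mean and 0.267 from its own group. Replicate 2 lay 0.506 from the WT 15DAF mean and 0.550 from its own group. The library labelled WT 5DAF replicate 3 was thus nearest to Ko1 of its stage, and tests that rest on WT at 5DAF are given with and without it. Because it is set apart by the values of these same 9 genes, their differences without it follow in part from that choice. Adjusted p-values without it show how far a result rests on 1 library and are not separate evidence. Leaving this library out also alters the spread estimated for all groups.

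**Figure D1:**
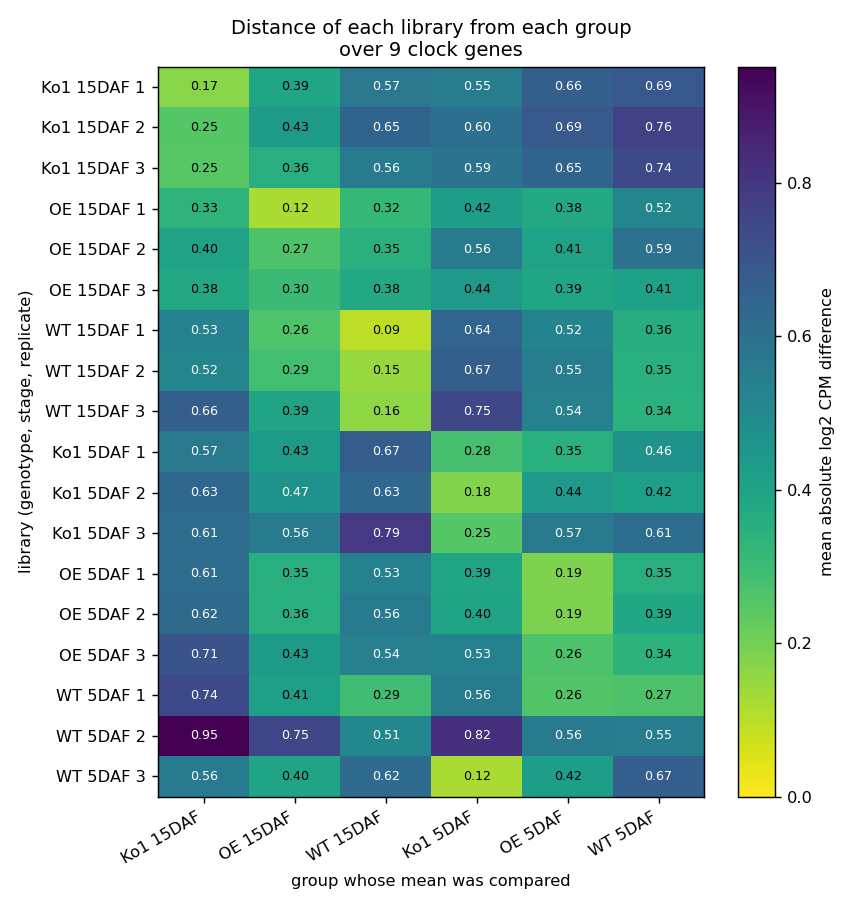
Mean absolute difference in log2 CPM over the 9 clock genes between each library (rows) and each group mean (columns), with the library itself left out of its own group's mean. Of its 6 distances, the library labelled WT 5DAF replicate 3 has its smallest, 0.122, in the Ko1 5DAF column.

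Set against gene length in the deposited FPKM values, the clock genes spanned a wide range of levels. PRR95 had the highest median over the 18 libraries at 413 FPKM (range 228 to 669), followed by GI at 267 FPKM (195 to 361) and PRR1 at 145 FPKM (104 to 160). PRR73 came next at 86.2 FPKM (11.5 to 146), then PRR37 at 67.1 FPKM (36.3 to 82.0) and LUX at 60.2 FPKM (23.8 to 100.007). The lowest medians were those of ELF3 at 38.5 FPKM (25.1 to 67.1), PRR59 at 33.6 FPKM (27.8 to 43.1) and LHY at 19.0 FPKM (9.65 to 41.7). Neighbours in this order overlap in their ranges, except GI and PRR1. The length implied by count and FPKM exceeded the listed genomic span for PRR59, and for 1400 of 20173 loci with over 20 counts, so the order between genes carries that uncertainty, while comparisons of 1 gene between libraries do not use length. The genes differed in how far they moved between libraries. The highest CPM was 11.1 times the lowest for PRR73, 4.28 times for both LHY and LUX, 3.33 times for ELF3 and 3.07 times for PRR95. It was 1.92 times for PRR37, 1.71 for GI, 1.62 for PRR59 and 1.57 for PRR1.

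**Figure D2:**
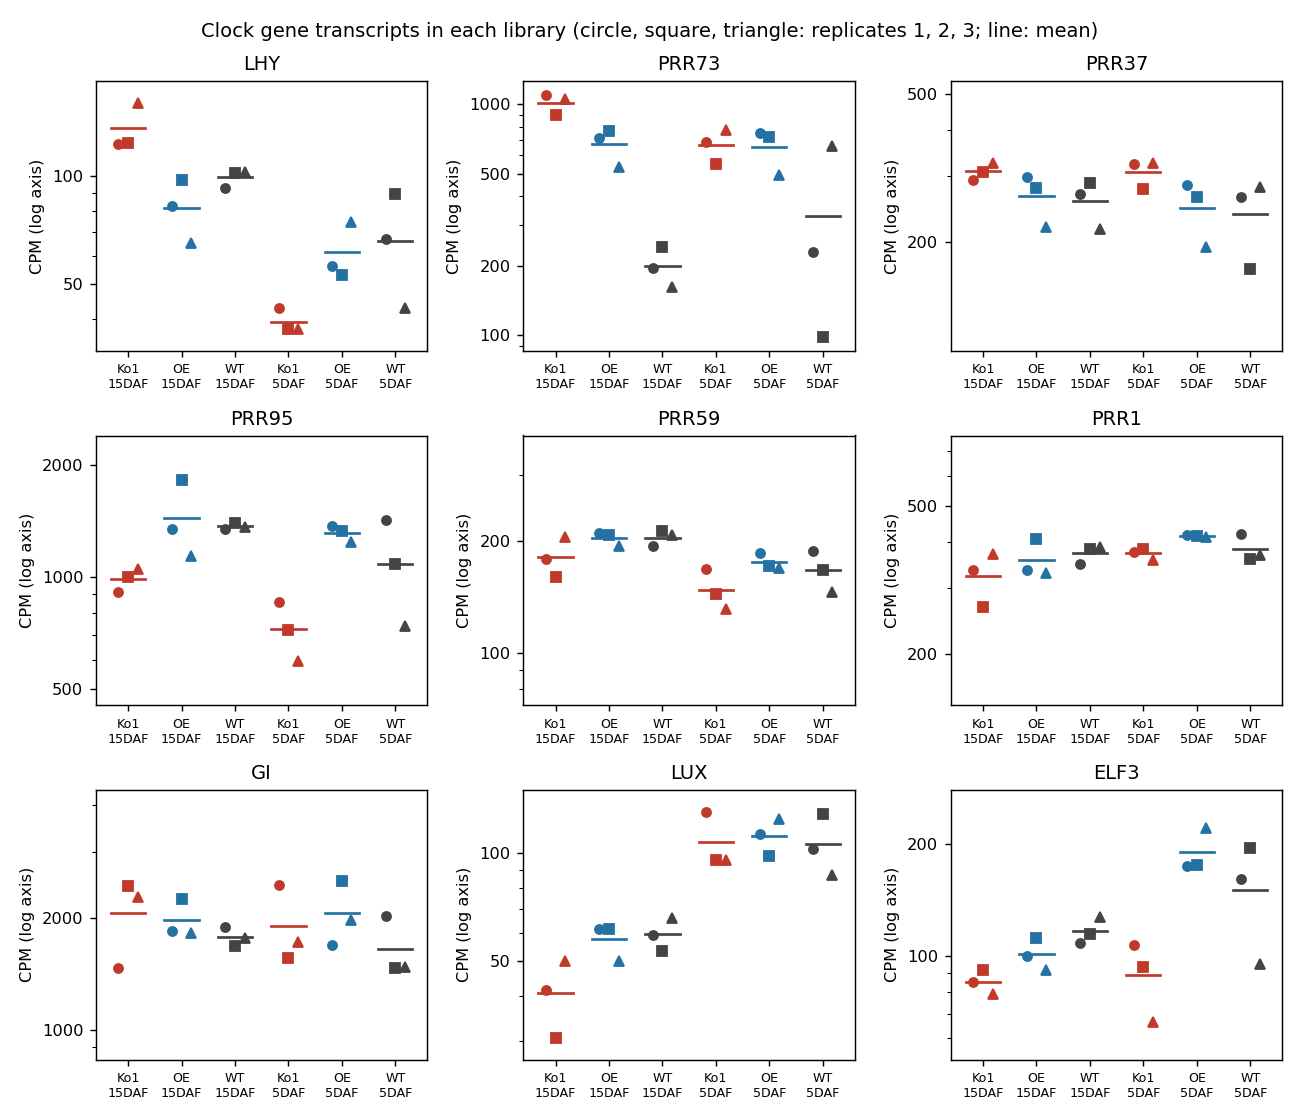
CPM of each of the 9 clock genes (1 panel each, log axis) in every library, in the order Ko1, OE and WT at 15DAF and then Ko1, OE and WT at 5DAF. Circles, squares and triangles are replicates 1, 2 and 3 and lines are group means. PRR73 is low in 5 of the 6 WT libraries, LUX is lower at 15DAF than at 5DAF in every genotype, and LHY in Ko1 differs most between the stages.

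PRR73, a pseudo-response regulator closely related to PRR37 (LOC_Os03g17570, chromosome 3, 9759479 to 9768690; the rice build is not given in the sources used here), was the clock gene with the largest difference between genotypes. At 15DAF it had 1095, 899 and 1049 CPM in Ko1, 714, 762 and 534 CPM in OE and 196, 242 and 162 CPM in WT. At 5DAF it had 685, 551 and 769 CPM in Ko1, 750, 719 and 493 CPM in OE and 229, 98.5 and 656 CPM in WT. The 12 Ko1 and OE libraries and the library labelled WT 5DAF replicate 3 lay between 493 and 1095 CPM, and the other 5 WT libraries lay between 98.5 and 242 CPM. The means at 15DAF were 1015 ± 102 CPM in Ko1, 670 ± 120 CPM in OE and 200 ± 40.2 CPM in WT (SD, n = 3 each). At 5DAF the means were 669 ± 110 CPM in Ko1, 654 ± 140 CPM in OE and 328 ± 292 CPM in WT (SD, n = 3 each), the WT mean including the 656 CPM of the library that stands apart.

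In Ko1 against WT at 15DAF, PRR73 was 5.08-fold higher, a log2 fold change of 2.34 (SE 0.446, adjusted p = 0.00419 in the edgeR quasi-likelihood test). It was the only clock gene called there, 1 of 9, in a comparison that called 11% of the 20437 loci (6.53% higher), and it passed in each of 7 fits that left out 1 library, with log2 fold changes of 2.22 to 2.51. In OE against WT at 15DAF all 3 OE libraries were above all 3 WT libraries and the log2 fold change was 1.75 (SE 0.437), but edgeR's adjusted p was 0.490, in a comparison that called 0.0245% of loci. That result depends on the tool and on libraries outside the contrast. DESeq2 gave an adjusted p of 0.0308. Once the library labelled WT 5DAF replicate 3 was left out, edgeR gave a log2 fold change of 1.74 with an adjusted p of 0.00636. An edgeR fit of only the groups compared called 1 clock gene of the 9, higher in OE, where 52 loci were called in all. The Ko1 and OE comparisons share their WT libraries, so their PRR73 values are not independent of each other.

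At 5DAF, PRR73 in Ko1 against WT had a log2 fold change of 1.03 (SE 0.429, adjusted p = 0.210 in edgeR) with all libraries, and 2.01 (adjusted p = 0.00145 in edgeR) once the library labelled WT 5DAF replicate 3 was left out. In OE against WT the log2 fold change was 0.996 (SE 0.429, adjusted p = 0.636 in edgeR) with all libraries and 1.99 (adjusted p = 0.00784 in edgeR) without it. At 5DAF the call on PRR73 thus rests on that 1 library in both comparisons. Ko1 and OE were not distinguished in PRR73 at either stage. Ko1 minus OE was 0.60 at 15DAF (interval of 2 SE from -0.25 to 1.45, adjusted p = 0.368 in edgeR), with all Ko1 libraries above all OE libraries, and 0.03 at 5DAF (-0.82 to 0.88, adjusted p = 0.968 in edgeR).

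Between the stages, PRR73 at 15DAF against 5DAF had a log2 difference of 0.60 in Ko1 (SE 0.426, adjusted p = 0.370 in edgeR), with all 15DAF libraries above all 5DAF libraries, and of 0.03 in OE (SE 0.424, adjusted p = 0.964 in edgeR). In WT it was -0.71 (SE 0.427, adjusted p = 0.289 in edgeR). The WT value turned to 0.26 (adjusted p = 0.640 in edgeR) with replicate 3 of WT 5DAF left out, and passed at -1.15 (adjusted p = 0.0266 in edgeR) with replicate 2 left out, so no direction can be given for WT. The Ko1 minus WT difference in stage change was 1.32 (SE 0.603, adjusted p = 0.573 in edgeR), and 0.34 with replicate 3 left out.

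**Figure D3:**
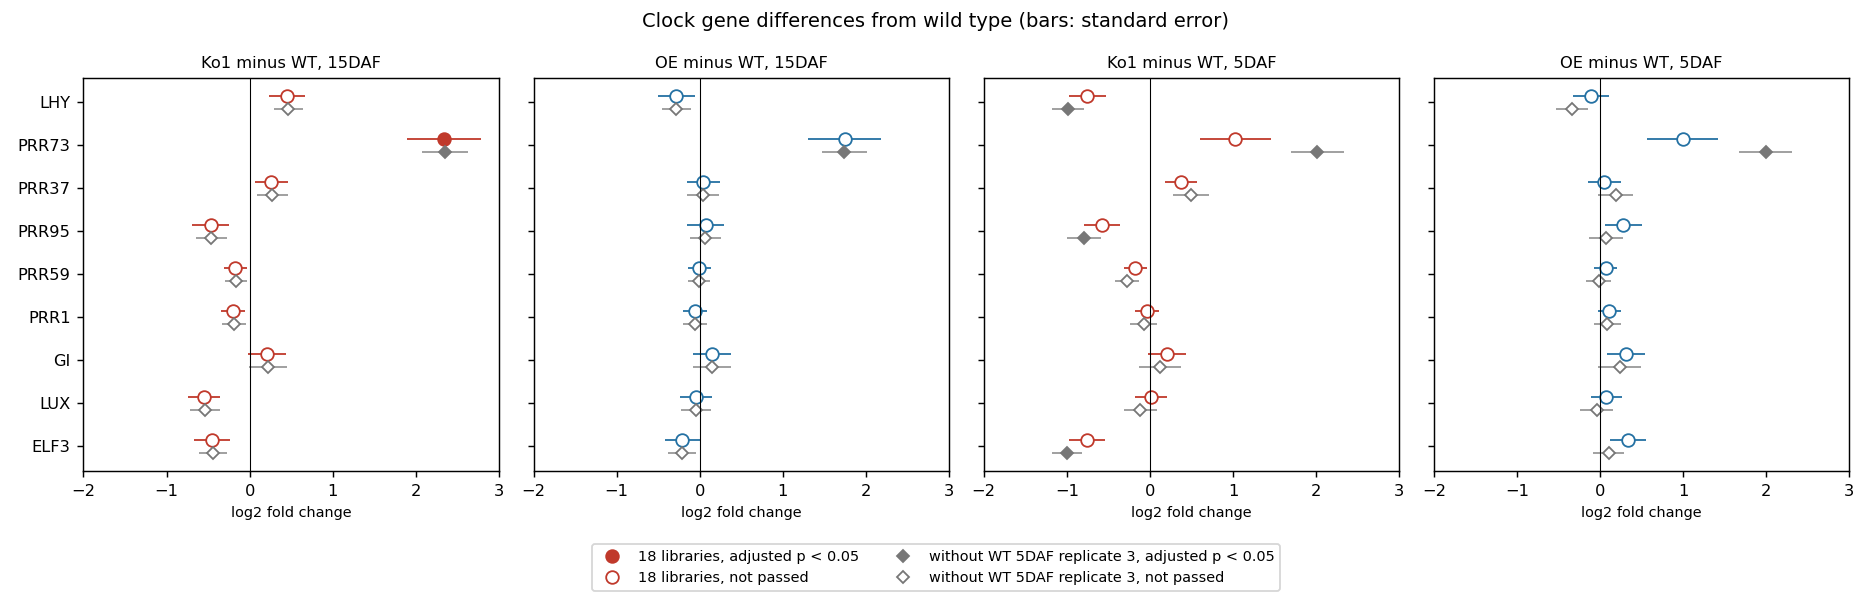
Log2 fold change of the 9 clock genes in Ko1 and OE against WT at 15DAF and at 5DAF (1 panel per comparison, bars are SE). Coloured circles come from all 18 libraries and are filled where edgeR's adjusted p is under 0.05, and grey diamonds come from a fit that leaves out the library labelled WT 5DAF replicate 3. PRR73 lies furthest to the right in each panel, from 0.996 to 2.34 with all libraries, and is filled only in Ko1 against WT at 15DAF.

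PRR37, a regulator that delays heading in long days (LOC_Os07g49460, chromosome 7, 29616705 to 29629223), differed less between genotypes than PRR73 did. It averaged 310 ± 15.9 CPM in Ko1, 266 ± 41.1 CPM in OE and 258 ± 37.2 CPM in WT at 15DAF, and 309 ± 26.8 CPM in Ko1, 247 ± 47.4 CPM in OE and 239 ± 60.2 CPM in WT at 5DAF (SD, n = 3 each). Its Ko1 minus WT log2 fold change was 0.26 at 15DAF (adjusted p = 0.396 in edgeR), with all Ko1 libraries above all WT libraries, and 0.37 at 5DAF (adjusted p = 0.304 in edgeR; 0.50 and 0.130 once the library labelled WT 5DAF replicate 3 was left out). The ratio of PRR73 to PRR37, taken in FPKM after the values had been seen, shows how far the pair parted. At 15DAF it was 1.58 to 2.03 in Ko1, 1.30 to 1.48 in OE and 0.396 to 0.456 in WT. At 5DAF it was 1.08 to 1.29 in Ko1, 1.39 to 1.48 in OE and 0.470, 0.316 and 1.27 in WT. Over all 18 libraries the log2 levels of the pair had a Pearson r of 0.670. Within groups the pair moved together, with a Pearson r of 0.805 between their deviations from the group means over 18 libraries and 0.899 over the 15 libraries outside WT 5DAF. These libraries share their depth scaling, and each r is a description only.

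LHY, the MYB factor of the dawn phase (LOC_Os08g06110, chromosome 8, 3365730 to 3373434), differed most between the stages in Ko1. At 15DAF it had 123, 124 and 160 CPM in Ko1, 82.5, 97.7 and 65.0 CPM in OE and 92.8, 102 and 103 CPM in WT. The 5DAF libraries held 42.9, 37.5 and 37.5 CPM in Ko1, 56.3, 52.9 and 74.7 CPM in OE and 66.6, 89.1 and 42.8 CPM in WT. Ko1 libraries were the highest of the 3 genotypes at 15DAF, all above OE and WT. At 5DAF they were all below OE, and the lowest WT library, replicate 3, lay just under the top of their range. The means were 136 ± 21.1 CPM in Ko1, 81.7 ± 16.4 CPM in OE and 99.3 ± 5.58 CPM in WT at 15DAF (SD, n = 3 each). They were 39.3 ± 3.16 CPM in Ko1, 61.3 ± 11.7 CPM in OE and 66.2 ± 23.2 CPM in WT at 5DAF (SD, n = 3 each).

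In Ko1, LHY was 3.46-fold higher at 15DAF than at 5DAF, a log2 fold change of 1.79 (SE 0.225, adjusted p = 2.66e-05 in edgeR), and it passed in all 7 fits that left out 1 library. In OE the same change was 0.41 (SE 0.219, adjusted p = 0.181 in edgeR), with overlapping libraries. In WT it was 0.59 (SE 0.219, adjusted p = 0.0782 in edgeR), with all 15DAF libraries above all 5DAF libraries, and 0.33 (adjusted p = 0.303 in edgeR) once the library labelled WT 5DAF replicate 3 was left out, while it passed at 0.86 (adjusted p = 0.0142 in edgeR) with WT 5DAF replicate 2 left out. The difference between the Ko1 and OE stage changes was 1.38 log2 units (SE 0.311, adjusted p = 0.0528 in edgeR). It passed with DESeq2 (adjusted p = 0.00329) and in edgeR once the library labelled WT 5DAF replicate 3 was left out (1.40, adjusted p = 0.0109). Between Ko1 and WT the difference was 1.21 (SE 0.311, adjusted p = 0.117 in edgeR). It passed with DESeq2 (adjusted p = 0.0225) and in edgeR without that library (1.46, adjusted p = 0.0212). That the LHY change differs between genotypes is thus near the threshold and depends on the tool and on 1 library.

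Within a stage, LHY in Ko1 was 1.66-fold higher than in OE at 15DAF, a log2 fold change of 0.73 (SE 0.219, adjusted p = 0.0356 in edgeR). It was the 1 clock gene of 9 called in that comparison, which called 13.3% of all loci (7.69% higher), and the call ended without Ko1 15DAF replicate 3, OE 15DAF replicate 1 or OE 15DAF replicate 3. Over the 7 fits that left out 1 library the log2 fold change was 0.59 to 0.90. At 5DAF Ko1 minus OE was -0.64 (SE 0.221, adjusted p = 0.0554 in edgeR; 0.0167 once the library labelled WT 5DAF replicate 3 was left out, and 0.0337 with DESeq2). Against WT, Ko1 had a log2 fold change of 0.45 at 15DAF (SE 0.218, adjusted p = 0.179 in edgeR). At 5DAF it had -0.75 (SE 0.221, adjusted p = 0.131 in edgeR), and -0.99 (adjusted p = 0.00493 in edgeR) once the library labelled WT 5DAF replicate 3 was left out. OE minus WT was -0.28 at 15DAF and -0.11 at 5DAF, neither past the threshold in edgeR. The 5DAF value ran from -0.34, with WT 5DAF replicate 3 left out, to 0.17 over the leave-one-out fits, so it has no settled sign.

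LUX, the MYB factor that binds DNA in the evening complex of Arabidopsis (LOC_Os01g74020, chromosome 1, 42874207 to 42875515), was lower at 15DAF than at 5DAF in every genotype. At 15DAF it had 41.4, 30.5 and 50.04 CPM in Ko1, 61.5, 61.2 and 50.1 CPM in OE and 59.3, 53.2 and 65.7 CPM in WT. The 5DAF levels were 131, 95.8 and 95.4 CPM in Ko1, 113, 98.3 and 125 CPM in OE and 103, 129 and 87.0 CPM in WT. All 9 libraries at 15DAF were below all 9 libraries at 5DAF. The means were 40.6 ± 9.79 CPM in Ko1, 57.6 ± 6.49 CPM in OE and 59.4 ± 6.27 CPM in WT at 15DAF, and 107 ± 20.1 CPM in Ko1, 112 ± 13.2 CPM in OE and 106 ± 21.0 CPM in WT at 5DAF (SD, n = 3 each).

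The log2 fold change of LUX at 15DAF against 5DAF was -1.40 in Ko1 (SE 0.195, adjusted p = 7.14e-05 in edgeR), -0.96 in OE (SE 0.193, adjusted p = 0.00129 in edgeR) and -0.84 in WT (SE 0.192, adjusted p = 0.00629 in edgeR). LUX passed in every leave-one-out fit of these comparisons, and in WT it was -0.98 (adjusted p = 0.00304 in edgeR) once the library labelled WT 5DAF replicate 3 was left out. The stage changes were not distinguished between genotypes, with a Ko1 minus WT difference of -0.56 (interval of 2 SE from -1.10 to -0.02, adjusted p = 0.610 in edgeR, and -0.42 with WT 5DAF replicate 3 left out) and a Ko1 minus OE difference of -0.44 (-0.98 to 0.10, adjusted p = 0.554 in edgeR). At 15DAF all 3 Ko1 libraries lay below all OE and all WT libraries. The Ko1 minus WT log2 fold change was -0.55 (SE 0.193, adjusted p = 0.0741 in edgeR; 0.0451 with DESeq2), and it passed in edgeR in 1 leave-one-out fit, that without Ko1 15DAF replicate 3. The Ko1 minus OE value was -0.50 (SE 0.193, adjusted p = 0.0931 in edgeR). At 5DAF the Ko1 minus WT value was 0.01 (interval of 2 SE from -0.37 to 0.40), and -0.11 with WT 5DAF replicate 3 left out (adjusted p = 0.746 in edgeR).

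LUX alone set the libraries apart by stage, whereas LHY levels overlapped between the stages across genotypes. The ratio of LHY to LUX in FPKM, chosen after the values were seen and given without a test, was 0.976, 1.33 and 1.05 in Ko1, 0.440, 0.523 and 0.424 in OE and 0.513, 0.628 and 0.513 in WT at 15DAF. At 5DAF it was 0.108, 0.128 and 0.129 in Ko1, 0.163, 0.176 and 0.196 in OE and 0.212, 0.227 and 0.161 in WT. Ko1 libraries thus held the highest ratios at 15DAF and the lowest at 5DAF. Over all 18 libraries the log2 levels of the genes had a Pearson r of -0.681, whereas their deviations from the group means had an r of 0.761 over 18 libraries and 0.708 over the 15 libraries outside WT 5DAF. The r was thus negative over all libraries pooled and positive among replicates.

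**Figure D4:**
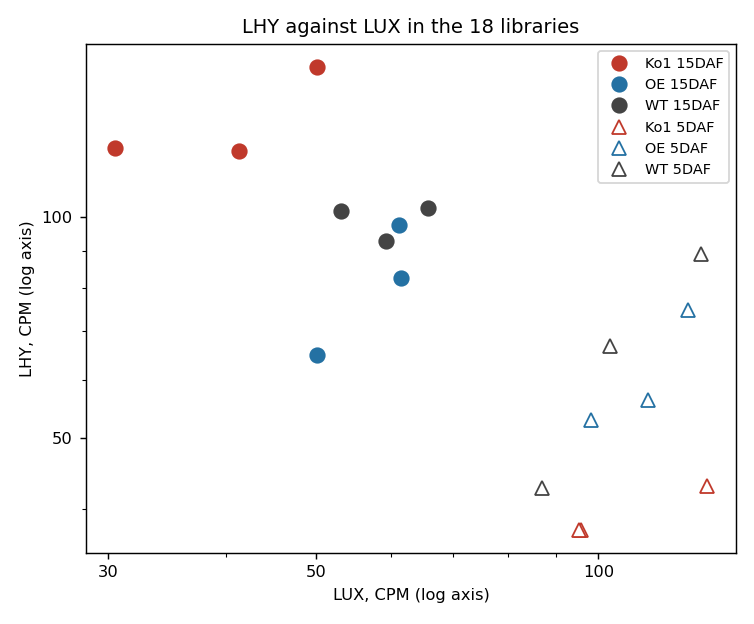
CPM of LHY against CPM of LUX in the 18 libraries, both on log axes, coloured by genotype and shaped by stage. The 15DAF libraries lie at lower LUX (30.5 to 65.7 CPM) than the 5DAF libraries (87.0 to 131 CPM), and Ko1 holds both the highest LHY values at 15DAF and the lowest at 5DAF.

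ELF3, the scaffold of the evening complex in Arabidopsis and a heading date gene in rice (LOC_Os06g05060, chromosome 6, 2234119 to 2239162), was lowest in Ko1 at both stages by group mean. At 15DAF it had 85.1, 91.4 and 79.0 CPM in Ko1, 99.8, 111 and 91.8 CPM in OE and 108, 114 and 127 CPM in WT. At 5DAF it had 107, 93.4 and 66.4 CPM in Ko1, 175, 175 and 221 CPM in OE and 160, 195 and 95.2 CPM in WT. Ko1 libraries were below all OE libraries at both stages, narrowly at 15DAF, and below all WT libraries at 15DAF. The means were 85.2 ± 6.22 CPM in Ko1, 101 ± 9.84 CPM in OE and 117 ± 9.75 CPM in WT at 15DAF, and 89.0 ± 20.8 CPM in Ko1, 190 ± 26.6 CPM in OE and 150 ± 50.6 CPM in WT at 5DAF (SD, n = 3 each).

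At 5DAF, ELF3 and PRR95 were lower in Ko1 than in OE, 2 of the 9 clock genes, in a comparison that called 16.3% of all loci (7.93% lower). ELF3 had a log2 fold change of -1.09 (SE 0.218, adjusted p = 0.0115 in edgeR), and the call ended without Ko1 5DAF replicate 3 (adjusted p = 0.0691 in edgeR). The summed leaf genes moved the same way, at 6933 to 8321 CPM in Ko1 5DAF and 10309 to 11400 CPM in OE 5DAF, with 3 of the 4 (both RBCS genes and RCA) below OE in every Ko1 library. Their part in the result was not tested. Against WT at 5DAF, ELF3 in Ko1 was at -0.75 (SE 0.217, adjusted p = 0.131 in edgeR), and at -0.999 (adjusted p = 0.00387 in edgeR) once the library labelled WT 5DAF replicate 3 was left out, which held 7134 CPM of leaf genes against 10755 and 11615 CPM in the other WT 5DAF libraries. At 15DAF Ko1 minus WT was -0.45 (SE 0.216, adjusted p = 0.175 in edgeR) and Ko1 minus OE was -0.25 (adjusted p = 0.476 in edgeR).

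Between stages, ELF3 fell in OE, to 101 CPM at 15DAF against 190 CPM at 5DAF, a log2 fold change of -0.91 (SE 0.217, adjusted p = 0.00465 in edgeR) that passed in all 7 leave-one-out fits. In WT the change was -0.36 (SE 0.216, adjusted p = 0.286 in edgeR), and -0.63 (adjusted p = 0.0308 in edgeR) once the library labelled WT 5DAF replicate 3 was left out. In Ko1 it was -0.06 (interval of 2 SE from -0.50 to 0.37, adjusted p = 0.882 in edgeR). The Ko1 minus OE difference of these changes was 0.85 (SE 0.305, adjusted p = 0.259 in edgeR), so the changes were not shown to differ.

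PRR95, a day-phase pseudo-response regulator (LOC_Os09g36220, chromosome 9, 20885172 to 20889843), had lower group means in Ko1 than in OE and WT. At 15DAF it had 912, 1000.2 and 1051 CPM in Ko1, 1351, 1828 and 1137 CPM in OE and 1345, 1398 and 1362 CPM in WT. The 5DAF levels were 857, 724 and 595 CPM in Ko1, 1376, 1329 and 1240 CPM in OE, and 1420, 1085 and 742 CPM in WT. Ko1 and OE libraries did not overlap at either stage, nor did Ko1 and WT libraries at 15DAF. The means were 988 ± 70.5 CPM in Ko1, 1438 ± 354 CPM in OE and 1369 ± 27.1 CPM in WT at 15DAF, and 725 ± 131 CPM in Ko1, 1315 ± 69.3 CPM in OE and 1082 ± 339 CPM in WT at 5DAF (SD, n = 3 each). Ko1 minus OE at 5DAF was -0.86 (SE 0.222, adjusted p = 0.0209 in edgeR), and the call ended without Ko1 5DAF replicate 2 or 3 or OE 5DAF replicate 1 or 3. At 15DAF Ko1 minus OE was -0.54 (SE 0.221, adjusted p = 0.112 in edgeR) and Ko1 minus WT was -0.47 (SE 0.221, adjusted p = 0.170 in edgeR). Ko1 minus WT at 5DAF was -0.58 (SE 0.221, adjusted p = 0.183 in edgeR), and -0.80 (adjusted p = 0.0208 in edgeR) once the library labelled WT 5DAF replicate 3 was left out. OE minus WT was 0.07 at 15DAF and 0.28 at 5DAF, the second being 0.07 with WT 5DAF replicate 3 left out, and none of these passed in edgeR.

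PRR1, the rice counterpart of Arabidopsis TOC1, the evening regulator (LOC_Os02g40510, chromosome 2, 24569294 to 24572560), was the steadiest of the 9 genes by its range. It averaged 325 ± 52.6 CPM in Ko1, 357 ± 43.4 CPM in OE and 372 ± 21.1 CPM in WT at 15DAF, and 372 ± 12.8 CPM in Ko1, 414 ± 3.70 CPM in OE and 383 ± 32.7 CPM in WT at 5DAF (SD, n = 3 each). Its log2 fold changes in the genotype and stage comparisons lay between -0.21 (15DAF against 5DAF in OE) and 0.11 (OE against WT at 5DAF, 0.09 with WT 5DAF replicate 3 left out), and none passed in edgeR. PRR59, a pseudo-response regulator (LOC_Os11g05930, chromosome 11, 2788996 to 2793735), averaged 181 ± 22.7 CPM in Ko1, 204 ± 9.07 CPM in OE and 204 ± 9.65 CPM in WT at 15DAF. At 5DAF it averaged 148 ± 18.8 CPM in Ko1, 176 ± 9.26 CPM in OE and 167 ± 21.2 CPM in WT (SD, n = 3 each). Every genotype had a higher PRR59 mean at 15DAF, with log2 differences of 0.30 in Ko1, 0.22 in OE and 0.29 in WT (0.18 with WT 5DAF replicate 3 left out), and none passed in edgeR. GI, a large plant protein that acts in the photoperiod pathway upstream of Hd1 (LOC_Os01g08700, chromosome 1, 4329152 to 4338486), averaged 2053 ± 516 CPM in Ko1, 1969 ± 240 CPM in OE and 1777 ± 104 CPM in WT at 15DAF. At 5DAF it averaged 1905 ± 472 CPM in Ko1, 2053 ± 413 CPM in OE and 1653 ± 316 CPM in WT (SD, n = 3 each). No difference in GI passed in edgeR, and the one of greatest size was OE minus WT at 5DAF, at 0.31 (interval of 2 SE from -0.15 to 0.78), or 0.24 with WT 5DAF replicate 3 left out.

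**Figure D5:**
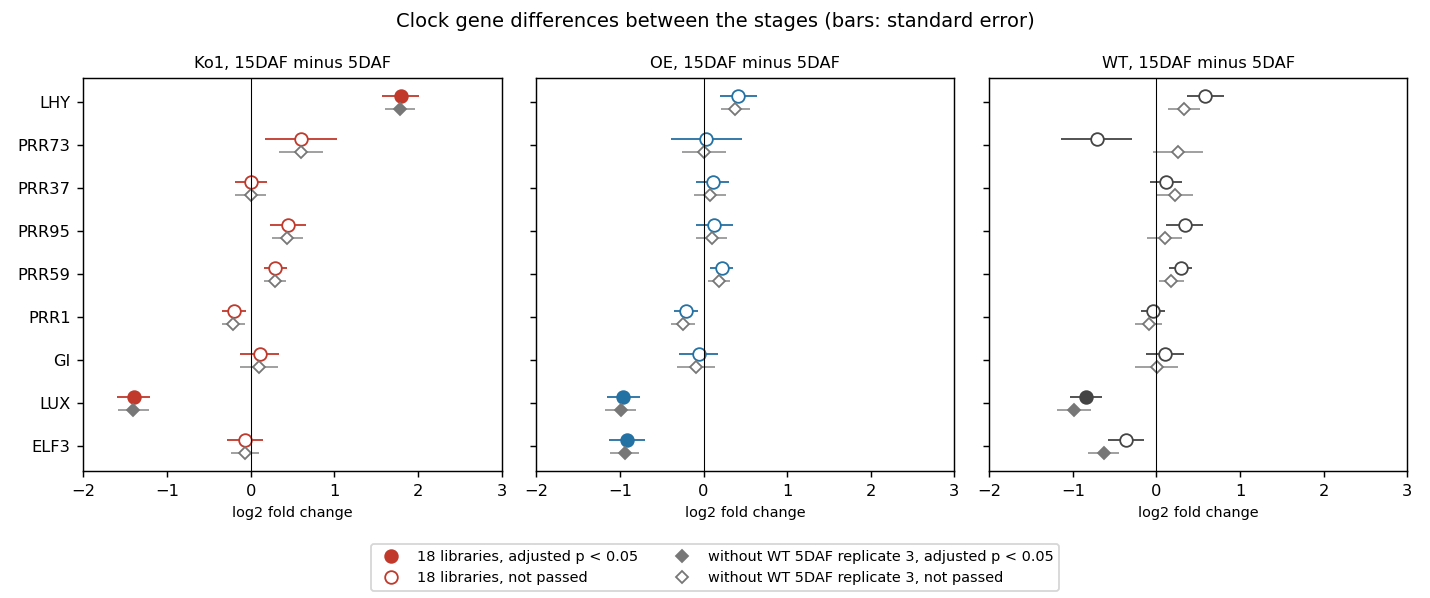
Log2 fold change of the 9 clock genes at 15DAF against 5DAF in Ko1, OE and WT (1 panel each, bars are SE, circles filled where edgeR's adjusted p is under 0.05, grey diamonds from a fit that leaves out the library labelled WT 5DAF replicate 3). LUX is filled in all 3 panels, LHY in Ko1 only at 1.79, and ELF3 in OE only at -0.91.

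Counted over the 9 genes, Ko1 against WT at 5DAF gave 0 calls in edgeR (0.0147% of loci), 4 at an unadjusted p under 0.05 (19.4%) and 2 in DESeq2, LHY and ELF3 (3.8%). Once the library labelled WT 5DAF replicate 3 was left out, edgeR called 13.4% of loci and 4 of the 9 clock genes. PRR73 was then higher in Ko1, where 6% of loci were, and LHY, PRR95 and ELF3 were lower, where 7.41% of loci were. OE against WT at 5DAF gave 0 calls in edgeR (0.0391% of loci), 1 at an unadjusted p under 0.05 (7.19%) and 0 in DESeq2 (0.46%). Leaving that library out gave 1 call, PRR73, where 0.182% of loci were called. OE against WT at 15DAF gave 0 calls in edgeR, 1 at an unadjusted p under 0.05 (3.16% of loci) and 1 in DESeq2 (0.122%), both PRR73, which was also called with that library left out (0.139%).

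The stage comparison called 2 clock genes in Ko1 (LHY and LUX, 20.1% of loci), 2 in OE (LUX and ELF3, 26.7%) and 1 in WT (LUX, 16.7%), and with the library that stands apart left out ELF3 was called in WT too (14.9%). Whether a genotype difference changed between the stages gave 0 clock calls in edgeR for each of the 3 pairs. All loci called were 0.553% for Ko1 and WT, 0% for OE and WT and 0.597% for Ko1 and OE. At an unadjusted p under 0.05 the clock genes numbered 2 for Ko1 and WT (8.37% of loci), 0 for OE and WT (6%) and 2 for Ko1 and OE (12%). DESeq2 called LHY for Ko1 and WT (1.5% of loci) and for Ko1 and OE (2.89%), and 0 for OE and WT (0.0649%). LHY was the clock gene called for these pairs with the library that stands apart left out, when 0.402% and 1.11% of loci passed. For LHY in Ko1 against OE at 5DAF, called by DESeq2 and with that library left out, the shares of loci called were 22.9% and 20.7%.

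The median log2 fold change of the 9 genes is set beside that of all loci tested, and rises and falls offset each other in it. In Ko1 against WT it was -0.17 at 15DAF, against 0.01 over all loci, and -0.04 at 5DAF, against -0.00 over all loci. The median absolute log2 fold change was 0.45 at 15DAF, against 0.37 over all loci, and 0.37 at 5DAF, against 0.32. With WT 5DAF replicate 3 left out, the 5DAF median was -0.11 and its absolute counterpart 0.50, against 0.01 and 0.43 over all loci. In OE against WT the median absolute change of the clock genes was 0.07 at 15DAF and 0.11 at 5DAF, against 0.17 and 0.21 over all loci, and at 5DAF 0.10 against 0.18 with that library left out. In Ko1 against OE it was 0.25 at both stages, against 0.38 at 15DAF and 0.42 at 5DAF over all loci. The signed clock medians there were -0.14 at 15DAF and -0.15 at 5DAF, against 0.01 over all loci at both stages. In OE against WT they were -0.004 at 15DAF and 0.11 at 5DAF, against 0.002 and -0.005 over all loci. With WT 5DAF replicate 3 left out, the 5DAF values in OE against WT were 0.09 and 0.01. At 15DAF the libraries did not overlap for 6 of the 9 genes in Ko1 against WT (37.7% of loci) and for 1 in OE against WT (15.3%). At 5DAF this held for 0 of the 9 in Ko1 against WT (14.5%) and 0 in OE against WT (8.92%). In Ko1 against OE it held for 5 of the 9 at 15DAF (36.8% of loci) and 5 at 5DAF (37.8%).

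Light-input and flowering genes that act beside the clock were taken as a list of 26, of which 24 passed the filter on low counts and 2 (Ehd1 and Ehd2) did not. In Ko1 against WT none was called in edgeR at 15DAF (11% of loci) or at 5DAF (0.0147%). In OE against WT none was called at 15DAF (0.0245% of loci) or at 5DAF (0.0391%). An unadjusted p under 0.05 was reached at 15DAF by 6 in Ko1 (28.8% of loci) and 0 in OE (3.16%). At 5DAF it was reached by 9 in Ko1 (19.4%) and 1 in OE (7.19%). DESeq2 called 1 in Ko1 against WT at 15DAF (17.1% of loci) and 1 at 5DAF (3.8%), MADS50 and ZTL1 in that order. It called 0 in OE against WT at 15DAF (0.122% of loci) and at 5DAF (0.46%). Without the library labelled WT 5DAF replicate 3, Ko1 against WT at 5DAF had 7 of the 24 lower, where 7.41% of loci were lower. They were FKF1, ZTL1, ZTL2, ELF4a, PHYA, CRY1b and SE5. That library was left out for its clock gene values near those of Ko1 5DAF. Genes that vary with the clock genes may share in that choice, so the 7 calls are not separate evidence. At 15DAF the fit without that library called MADS50 higher and ZTL1 lower in Ko1 against WT, where 14.7% of loci were called.

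In Ko1 against OE at 5DAF, 9 of the 24 were lower and 0 higher, where 7.93% of all loci were lower. They were the blue-light F-box genes FKF1, ZTL1 and ZTL2, the ELF3 paralogue ELF3-2, ELF4a, the phytochromes PHYA and PHYB and the cryptochromes CRY1b and CRY2. ZTL1 had -0.99 (adjusted p = 0.0139 in edgeR) and CRY1b had -0.996 (adjusted p = 0.0154 in edgeR), with the other 7 between -0.76 and -0.47. Each of the 9 calls ended in at least 1 leave-one-out fit. In the same comparison the leaf genes were lower in Ko1 as given for ELF3, and their part was not tested. At 15DAF, MADS50, an activator of flowering related to Arabidopsis SOC1, was higher in Ko1 than in OE by 1.19 (adjusted p = 0.0155 in edgeR), a call that ended without Ko1 15DAF replicate 3, OE 15DAF replicate 2 or OE 15DAF replicate 3. CRY1a was higher by 0.93 (adjusted p = 0.0379 in edgeR), a call that ended without Ko1 15DAF replicate 2 or any of the OE 15DAF libraries. Ko1 15DAF replicate 2 stood at 117 CPM against 58.9 and 42.1 CPM in the other Ko1 libraries. FKF1 was lower by a log2 fold change of -0.50 (adjusted p = 0.0409 in edgeR), in a comparison with 5.64% of loci lower, and this call ended without any 1 of the 6 libraries compared.

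Between the stages, COP1, an E3 ubiquitin ligase of light signalling, was higher at 15DAF than at 5DAF in each genotype. It averaged 99.0 ± 33.5 CPM at 15DAF and 26.9 ± 4.75 CPM at 5DAF in Ko1, 141 ± 17.8 CPM and 38.2 ± 3.08 CPM in OE and 122 ± 23.9 CPM and 38.1 ± 9.42 CPM in WT (SD, n = 3 each). The log2 fold changes were 1.88 in Ko1, 1.88 in OE and 1.67 in WT (1.46 with WT 5DAF replicate 3 left out), all past edgeR's threshold in every leave-one-out fit. The phytochrome gene PHYC was lower at 15DAF in each genotype, by log2 fold changes of -0.82 in Ko1, -1.44 in OE and -0.97 in WT, all called in edgeR in every leave-one-out fit. In all, 2 genes of the list were higher and 2 lower in Ko1, where 10.5% and 9.58% of loci were. In OE 1 was higher and 7 lower (13.1% and 13.6% of loci), and in WT 1 higher and 3 lower (7.57% and 9.15%). With WT 5DAF replicate 3 left out, WT had 1 higher and 5 lower (6.27% and 8.63%). SE5, described as a heme oxygenase, an enzyme in the synthesis of the phytochrome chromophore, was higher in Ko1 by 0.90. PHYB was lower by log2 fold changes of -1.11 in OE and -0.71 in WT (-0.85 with that library left out). ELF3-2 was lower by log2 fold changes of -1.01 in OE and -0.68 in WT (-0.83 with it left out). CRY2 was lower by log2 fold changes of -0.66 in OE, which passed in all 7 leave-one-out fits, and -0.47 in Ko1, which passed in 2 of 7. The summed leaf genes were lower at 15DAF than at 5DAF in OE (5129, 5303 and 4168 CPM against 10309, 11400 and 11129 CPM) and in WT (6502, 5413 and 6248 CPM against 10755, 11615 and 7134 CPM). In Ko1 the sums overlapped, at 6170, 11471 and 3632 CPM against 7851, 8321 and 6933 CPM. The group means of both RBCS genes and of Lhcb1 were lower at 15DAF in each genotype. Mean RCA was higher at 15DAF in Ko1 (1447 against 564 CPM) and in WT (1919 against 1506 CPM), and slightly lower in OE (1515 against 1558 CPM). The part of the leaf genes in the stage results, those of LUX, LHY and ELF3 included, was not tested.

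The loci most like 3 of the clock genes were sought among 11192 other loci by the Pearson r of log2 CPM over the 18 libraries, which share their depth scaling and group structure. Those most like PRR73 were LOC_Os12g31850, described in the table as a ureide permease (r = 0.940), LOC_Os06g48560, a transferase family protein (0.906), and LOC_Os05g11120, a prenylated rab acceptor (0.862). LOC_Os12g31850 had 0 counts in the 5 WT libraries that were low in PRR73, 37.0 CPM in the library labelled WT 5DAF replicate 3 and 21.0 to 68.6 CPM in the Ko1 and OE libraries. Its presence and absence divided the libraries as PRR73 did. Because this locus was picked for its likeness to PRR73 over these same libraries, that match is not separate evidence. Those most like LHY were LOC_Os06g08140, a protein phosphatase 2C (0.930), LOC_Os07g06660, a glyoxalase family protein (0.927), and LOC_Os05g33010, a DnaJ heat shock protein (0.920). Those most like PRR1 were LOC_Os01g27940, described as cyclin-L1-1 (0.867), LOC_Os11g05090, a peptidyl-prolyl isomerase (0.862), and LOC_Os10g25360, a signal peptide peptidase domain protein (0.845).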

How the data were processed

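The deposited table gives raw counts and FPKM values per locus and library, per the file headers. Counts were used for every test, and the FPKM values, which the authors scaled by library total and gene length, only for levels between genes and for ratios. The submitters' processing notes name Bowtie 0.12.2 and the build mm8, which is a mouse genome, while the loci of the table are those of rice. For the rice build, annotation, counting tool and use of strand, each is not given in the sources used here. Reads of a clock gene and of an overlapping or antisense transcript therefore cannot be separated.

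Of 55986 loci, 20437 passed edgeR's filterByExpr. An edgeR 4.0.16 quasi-likelihood fit (R 4.3.3, TMM scaling, 6 group means over 18 libraries) gave 12 two-sided contrasts, adjusted by Benjamini-Hochberg over all loci passing, with 0.05 as the threshold. SE is the log2 fold change divided by the root of F, and intervals are 2 SE. The log2 CPM values behind distances and likeness used a prior count of 2. Likeness was searched for LHY, PRR73 and PRR1 among described loci averaging at least 5 CPM. Named genes were all 9 clock genes, the called members of the list of 26 (in stage comparisons the 4 with the largest absolute change) and the 3 most like each searched gene. The fit was tested on simulated data with planted shifts and no library made to stand apart. That test therefore cannot speak to the effect of WT 5DAF replicate 3. Alternatives were DESeq2 1.42.0, RLE scaling, no filter, a replicate block, an adjusted p under 0.01, fits of only the groups compared, and leaving out each library. The members and lists were chosen with earlier results of these data known. All 9 clock loci carried the matching RAP identifier.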

Additional observations from a re-analysis of the deposited data

How the results depend on the processing

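Of the 9 genes in 12 contrasts, no called value changed sign under any alternative, set against the main fit. Of 1521 values under alternatives, 74 had another sign with no call in either fit (at most 0.26 log2 units in size). That size is of the alternative values only. PRR73 between stages in WT, given above, turned from a larger negative value with all libraries, and was called negative without WT 5DAF replicate 2. RLE scaling and the replicate block changed no clock call, and RLE shifted no median of all loci by over 0.1. Whether the replicate numbers pair the samples is not labelled, and these correlations cannot settle it. Of 15 pairs of groups, 0 had all 3 same-number correlations over 0.1 (range -0.205 to 0.251), and 8 of 18 libraries correlated best with their own number. WT and Ko1 at 5DAF had same-number values of 0.251, 0.0673 and 0.245, with a mean of 0.188 against -0.0915 for other numbers. With the block, all loci called in Ko1 against WT numbered 2497 (2240 without it) at 15DAF and 1 (3 without it) at 5DAF, and in OE against WT at 15DAF 3 (5 without it). DESeq2 gave 2 clock calls in Ko1 against WT at both stages (3498 of all loci called at 15DAF and 760 at 5DAF). It gave 1 in OE against WT at 15DAF (25 loci), and 1 each for the Ko1 minus WT and Ko1 minus OE changes between stages (307 and 533 loci). Fits of only the groups compared gave 2 calls in Ko1 against WT at 15DAF (with 2988 of all loci called), 1 in OE against WT at 15DAF (52 loci), 3 in Ko1 against OE at 5DAF (2364 loci, and 2 clock calls in the fit of all groups) and 1 for the Ko1 minus OE change (105 loci), for which no filter also gave 1. At an adjusted p under 0.01 in edgeR, Ko1 against OE gave 0 clock calls at both stages, with 876 of all loci called at 15DAF and 90 at 5DAF. Leaving out 1 library gave 1 to 2 clock calls in Ko1 against WT at 15DAF (814 to 3079 of all loci) and 0 to 4 at 5DAF (0 to 2803). It gave 0 to 1 in OE against WT at 15DAF (3 to 29 loci) and at 5DAF (4 to 60). Ko1 against OE had 0 to 1 at 15DAF (1222 to 3319) and 0 to 3 at 5DAF (46 to 4334). Stage comparisons had 1 to 3 in WT (1907 to 3114), 2 to 2 in Ko1 (2725 to 4549) and 2 to 2 in OE (3943 to 5918). The Ko1 minus WT, OE minus WT and Ko1 minus OE changes had 0 to 1 (35 to 142), 0 to 0 (0 to 3) and 0 to 1 (51 to 233). Without the library labelled WT 5DAF replicate 3, 2803 loci were called in Ko1 against WT at 5DAF (3 with it, 760 with DESeq2). No clock gene had fewer than 412 counts in a library.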
